A study of Caenorhabditis elegans with 6 samples.

Results

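Touch receptor cells carrying 128Q were set against touch receptor cells carrying GFP only, 2 kinds of cells that never shared an array. The comparison therefore ran through 19Q cells: for each gene, the mean log ratio of 128Q over 19Q (3 arrays) was added to the mean log ratio of 19Q over GFP only (3 arrays). All 6 arrays of the series entered, and 21642 of 22321 genes or unnamed probes had a value on every array. The sum is called 128Q versus GFP only below, and each of its parts a step. The 128Q cells came from transgenic C. elegans that express N-terminal HTT with an expanded polyQ tract, fused to GFP under the mec-3 promoter. The 19Q cells carry the same fusion with a normal tract, and the GFP-only cells carry GFP alone under that promoter, so GFP and the promoter are common to all 3 kinds. The polyQ strains are integrated lines, and cells were dissociated from embryos, kept in culture overnight and sorted on GFP. The labels give the cells no age beyond embryonic.

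Touch receptor neurons sense light touch along the body of the worm, and mec-3 encodes a LIM homeodomain factor needed for their differentiation. Huntingtin with an expanded polyQ tract causes Huntington's disease, and exon-1-like fragments of it misfold and form aggregates in neurons of many model organisms. Adding the step from GFP only to 19Q asks what the expanded protein differs by from cells with no huntingtin at all. The step from 19Q to 128Q asks what the longer tract adds. Each kind of cell came from its own transgenic worms, so the transgene product and the transgenic line cannot be told apart here.

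Values are log ratios in the units that were deposited. Their log base was not given in the sources used here, so differences are never turned into folds. Over all probes, 4 of the 6 arrays (replicate 1 of 128Q over 19Q and all 3 of 19Q over GFP only) had a mean of 0 and an SD within 0.001 of 1, whereas replicates 2 and 3 of 128Q over 19Q had SDs of 0.783 and 0.81. The arrays thus do not stand on one scale, and how they were scaled was not given in the sources used here. Sums, shares of the sum and comparisons of spread between the steps add or set side by side values on these unequal scales. A set of 244 unnamed probes, the low probes, was defined by values below -3 on 3 of the arrays. These arrays were replicate 1 of 128Q over 19Q and replicates 1 and 2 of 19Q over GFP only. The low probes had medians of 0.16 and 0.79 on replicates 2 and 3 of 128Q over 19Q. On replicate 3 of 19Q over GFP only their median was 0.32. Without them the SD across arrays was 0.676 to 1.00. Of those probes 0 were called in 128Q versus GFP only. Replicate 3 of 19Q over GFP only stood apart, since its values correlated across probes with those of replicates 1 and 2 with r = 0.114 and 0.0118, against 0.739 between replicates 1 and 2. Without the low probes these were 0.21 and 0.0446, against 0.525. The 3 arrays of 128Q over 19Q correlated with r = 0.54 to 0.677, or 0.68 to 0.761 without those probes. None of 41 marker genes fixed for touch receptor neurons, other neurons, muscle, pharynx, hypodermis, intestine, germline and coelomocytes had a named probe, so the labelled cell type was not checked here against its markers. In RNA from pooled cells, fewer cells of a type and less RNA per cell cannot be told apart.

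In 128Q versus GFP only, 145 genes passed the test (adjusted p under 0.01, limma), 94 higher and 51 lower in 128Q cells. That is 0.67% of the genes tested, 0.434% higher and 0.236% lower. Of the 145, 61 carry a gene name, 36 higher and 25 lower, and all 61 are annotated as protein coding. An unadjusted p under 0.05 was reached by 5563 genes. The median sum of the called genes was 3.22 for the higher and -3.24 for the lower, while the median over all genes tested was 0.10. The split between higher and lower depended on how the arrays were scaled. With arrays centred on their medians and scaled to one median absolute value it was 53 higher and 69 lower, with 84 of the 145 genes called again. Of the 61 named genes 19 lost their call there, among them F41G4.8, F46C5.6, C35A5.6 and Y45F10B.13 of the 12 highest described below. Centring on medians alone cost 3 named genes their call, C14A11.5, K08H2.5 and uad-2. With arrays divided by their SD the split was 195 higher and 79 lower. The number of calls also rested on single arrays: leaving out any 1 array gave 0 calls, with 3832 to 5344 genes at an unadjusted p under 0.05, except that leaving out replicate 3 of 19Q over GFP only gave 538.

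Among the called genes, the step from 19Q to 128Q carried most of the sum. Among the 94 genes higher in 128Q cells, the median was 2.77 for 128Q over 19Q and 0.54 for 19Q over GFP only. Among the 51 lower genes the corresponding medians were -2.24 and -0.78. As a share of the sum, the first step made up a median of 83.9% for the higher genes and 76.3% for the lower ones. Over all genes tested the median share was 48.9%, with step medians of 0.05 and 0.09. On its own the first step had 619 calls (2.86% of genes tested, 358 higher and 261 lower). The second step had 0 calls (0% of genes tested), with a lowest adjusted p of 0.0966 and 4750 genes at an unadjusted p under 0.05. The spread between arrays differed too, with a median SD over all genes tested of 0.286 in 128Q over 19Q and 0.485 in 19Q over GFP only. Both steps contain RNA of 19Q cells, as denominator of the first and numerator of the second, and whether they used the same extracts was not given in the sources used here.

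**Figure D1:**
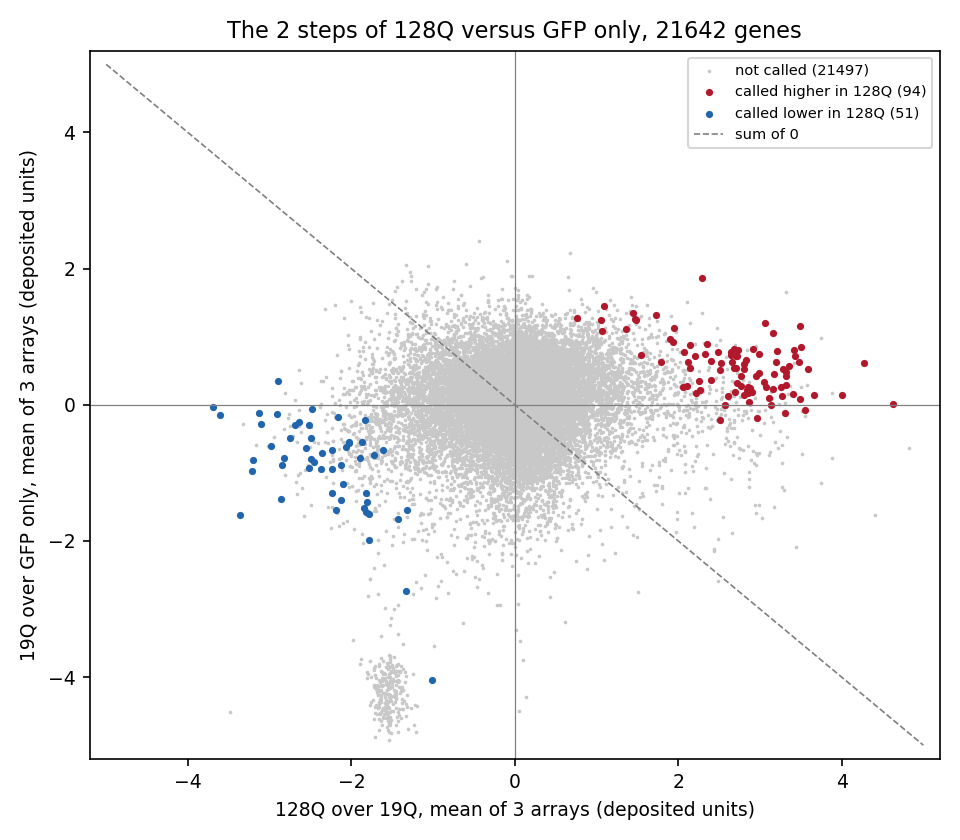
Each of 21642 genes is placed by its mean log ratio in 128Q over 19Q (x axis) and in 19Q over GFP only (y axis), both over 3 arrays and in deposited units, with the 145 called genes coloured by direction and a dashed line where the sum is 0. Called genes lie far out along the x axis and mostly on the same side of 0 on the y axis, and the separate group at the bottom left, holds the 244 low probes (medians of -1.55 on the x axis and -4.23 on the y axis), of which 0 were called.

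Genes were then grouped by how much of the sum came from the first step. In 95 called genes (65.5%, 69 higher and 26 lower) it supplied over 75%, against 11.4% of all genes tested. In 42 (29%, 19 higher and 23 lower) each step supplied 25% to 75%, against 30.2% of all genes tested. Only K05G3.2 took over 75% from the second step, a pattern seen in 11.6% of all genes tested. In 7 called genes the steps had opposite signs with the first the larger, and in 0 was the second the larger. The steps of 138 called genes (95.2%) thus ran in the same direction, as did those of 11507 genes tested (53.2%). Calling genes on their sum in itself favours steps of the same sign. Whether the steps themselves differed was tested as a contrast, and 0 genes passed (4814 at an unadjusted p under 0.05), so these classes describe where a value came from and do not show that one step exceeded the other in a given gene.

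A second description used every pairing of 1 array from each step, which gives 9 sums per gene. All 9 had the same sign in 145 of 145 called genes, against 33.9% of all genes tested (21.3% with all 9 above 0 and 12.6% with all 9 below), a count that a test on the same arrays largely fixes. All 6 log ratios had the same sign in 105 called genes (72.4%) and in 2869 of those tested (13.3%). Replicate 3 of 19Q over GFP only, the array that stood apart, had the sign of the sum in 81 of 94 genes called higher and in 45 of 51 called lower. These genes were called on sums that include that array, so the choice of genes favours such signs and means. Averaged over the 94 higher genes, it read 0.596, beside 0.488 and 0.606 for replicates 1 and 2. Over the 51 lower genes it read -0.905, beside -0.786 and -1.03.

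T04B2.3 had the highest sum of a named gene. Its log ratios were 3.57, 2.66 and 2.95 in 128Q over 19Q and 1.26, 1.43 and 0.91 in 19Q over GFP only. All 6 lay above 0, and the sum was 4.26 ± 0.33 (SE, adjusted p = 0.00647, limma), of which 71.9% came from the first step. F41G4.8 followed with a sum of 4.22 ± 0.44 (SE), but its second step was uneven, with 0.22, 1.58 and 0.62 on the 3 arrays. C32E12.4 had nearly equal values of 3.40, 3.47 and 3.57 in 128Q over 19Q and 1.10, 0.72 and 0.07 in 19Q over GFP only, for a sum of 4.11 ± 0.33 (SE). The other 9 of the 12 highest, D1086.2, F41B4.1, F46C5.6, F01F1.3, Y45F10B.13, C35A5.6, T28H10.2, F10G2.1 and Y47D7A.2, had sums between 3.39 and 3.82. Neighbours in this order differ by less than the larger of their SEs. The gene with the lowest p of all was an unnamed probe with a sum of 4.21 ± 0.28 (SE, adjusted p = 0.00647, limma).

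Within these 12, the weight of the steps varied. F41B4.1 read 4.35, 3.27 and 3.35 in 128Q over 19Q and -0.08, -0.28 and 0.79 in 19Q over GFP only, so that 96.2% of its sum came from the first step and its second step had both signs. In C35A5.6 the first step was 3.55 and the second -0.08, which made its sum of 3.47 slightly smaller than its first step. C16B8.2 and C03H5.5, called higher but outside the 12, behaved alike, with second steps of -0.01 each beside first steps of 3.14 and 2.57. For genes of this kind, 128Q versus GFP only and 128Q over 19Q give nearly the same number.

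Among the other genes called higher, a few have names that tell their class. npp-26 belongs to the nuclear pore complex genes and had a sum of 3.34 ± 0.32 (SE), with 3.40, 3.09 and 2.74 in 128Q over 19Q and -0.12, 0.28 and 0.62 in 19Q over GFP only. cup-16, named for a coelomocyte uptake phenotype, had 3.26 ± 0.32 (SE) and was above 0 on all 6 arrays, with 2.20 to 2.78 in the first step and 0.35 to 1.19 in the second. pals-30 had 2.85 ± 0.28 (SE), with 1.69, 2.07 and 2.04 in 128Q over 19Q and 1.16, 0.59 and 1.02 in 19Q over GFP only. All 6 values were above 0, and 67.7% of its sum came from the first step, which passed alone, whereas the second did not (adjusted p = 0.127, limma). npp-26, pals-30 and C03H5.5 lost their calls under the centring and scaling above, while cup-16 kept its call.

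**Figure D2:**
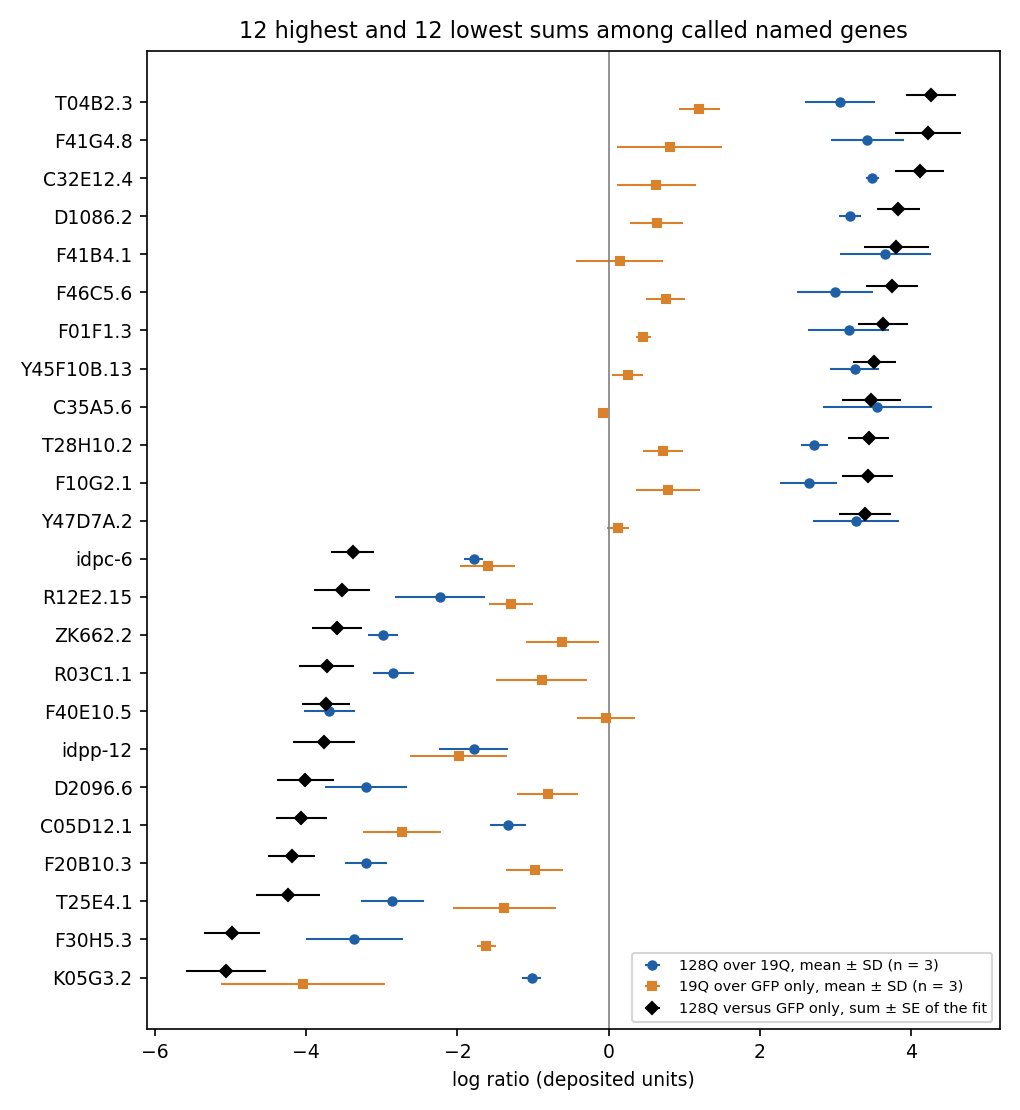
The 12 highest (top) and 12 lowest (bottom) sums among called genes with a name are drawn as black diamonds with the SE of the fit, above the mean of 128Q over 19Q (blue circles) and of 19Q over GFP only (orange squares), each with its SD over 3 arrays, all in deposited units. In the higher genes the orange squares lie between -0.08 and 1.20, whereas in the lower genes they reach -4.04 in K05G3.2 and -2.73 in C05D12.1.

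The lowest sum of a called gene belonged to K05G3.2. It read -1.09, -1.09 and -0.87 in 128Q over 19Q and -3.85, -5.21 and -3.07 in 19Q over GFP only. All 6 values were below 0, and the sum was -5.06 ± 0.53 (SE, adjusted p = 0.00676, limma), with a 95% interval of -6.31 to -3.81. Only 20.1% of it came from the first step. Neither step passed alone, with adjusted p values of 0.144 for the first and 0.0966 for the second (limma), and the contrast between the steps gave 0.0315. C05D12.1 had a similar form, with -1.06, -1.51 and -1.42 in 128Q over 19Q, -2.53, -3.33 and -2.35 in 19Q over GFP only and a sum of -4.06 ± 0.34 (SE), 32.7% from the first step. Both genes stand on a published list of genes lower in 19Q than in GFP-only cells, which was drawn up on these arrays and is not independent of them. Both lost their calls when arrays were centred and scaled.

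F30H5.3 came next to K05G3.2, with -2.84, -3.16 and -4.08 in 128Q over 19Q and -1.56, -1.53 and -1.76 in 19Q over GFP only. Its sum was -4.98 ± 0.37 (SE), so the order of these 2 genes is not resolved. T25E4.1 (-4.24), F20B10.3 (-4.19) and D2096.6 (-4.01) also had all 6 values below 0, and their first steps supplied 67.5%, 76.7% and 79.9% of the sum. F40E10.5 marked the other end, with -3.71, -3.35 and -4.02 in 128Q over 19Q and 0.24, -0.48 and 0.12 in 19Q over GFP only. Its second step averaged -0.04, and 98.9% of its sum of -3.73 ± 0.32 (SE) came from the first. The remaining 5 of the 12 lowest, R03C1.1, ZK662.2, R12E2.15, idpp-12 and idpc-6, had sums of -3.77 to -3.38.

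**Figure D3:**
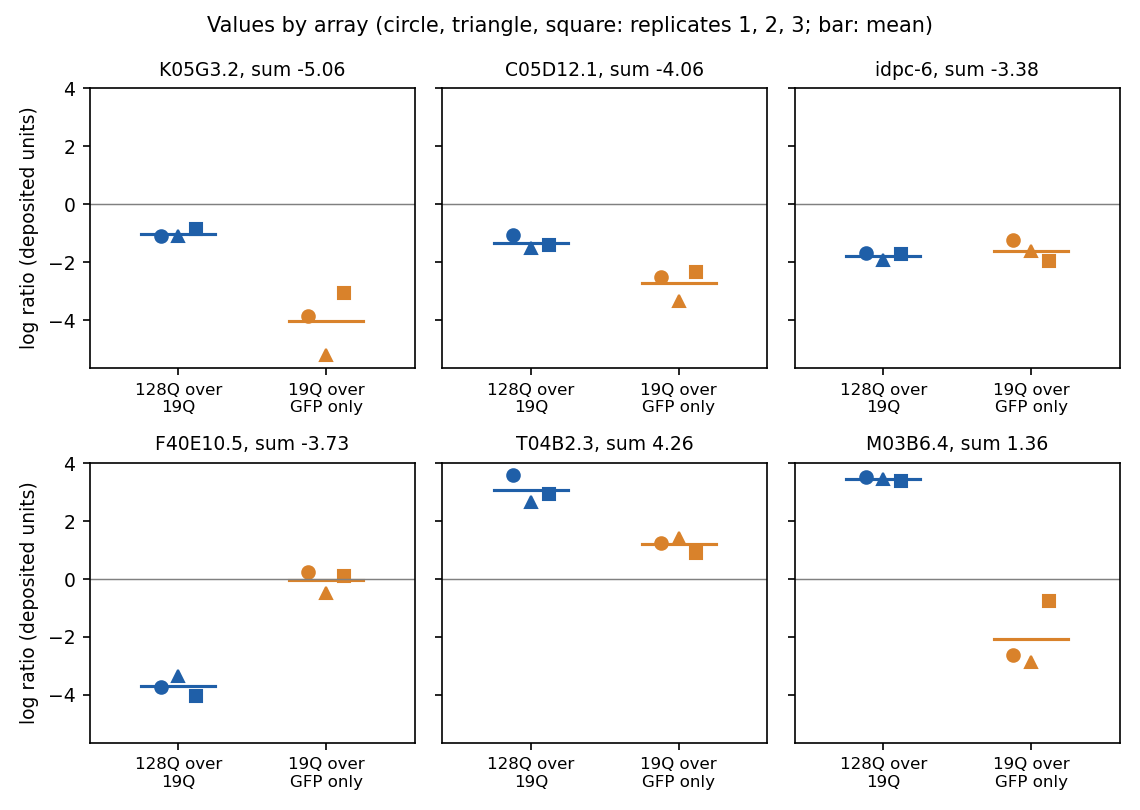
The log ratio on each array (deposited units) is shown for 6 genes, with 128Q over 19Q on the left and 19Q over GFP only on the right of each panel, symbols for replicates 1 to 3 and a bar at the mean. K05G3.2 and C05D12.1 are lower mainly in the second step, idpc-6 in both, F40E10.5 in the first alone, T04B2.3 is higher in both, and in M03B6.4 the steps oppose each other.

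Of the 145 genes, 134 were called in 128Q over 19Q as well and 11 were called only in the sum. In those 11 the first step supplied 20.1% to 54% (median 46%). Of them 6 are named. K08H2.5, T25G3.1 and C14A11.5 were higher, with sums of 2.73, 2.54 and 2.30, and K05G3.2, C05D12.1 and idpp-12 were lower. T25G3.1 was especially even in its second step, with 1.33, 0.74 and 1.20 in 128Q over 19Q and 1.46, 1.42 and 1.48 in 19Q over GFP only. C14A11.5 had 1.25, 0.95 and 0.98 followed by a second step of 1.24 ± 0.22 (SD, n = 3), and K08H2.5 had 1.52, 1.06 and 1.85 followed by 0.95, 1.53 and 1.29. In each of these 3 genes the values of both steps lay above 0 on every array and were of similar size. Neither step passed alone in any of them (adjusted p of 0.0101 to 0.0157 for the first and 0.127 for the second, limma), and the 11 genes were chosen for lacking a call in the first step.

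In the other direction, 485 genes were called in 128Q over 19Q and not in the sum. The steps had opposite signs in 231 of them and the same sign in 254, while 53.2% of all genes tested had steps of the same sign. M03B6.4, on the same list of genes lower in 19Q cells, is an example with opposite signs. It read 3.51, 3.45 and 3.37 in 128Q over 19Q and -2.64, -2.86 and -0.76 in 19Q over GFP only. The first step passed alone (adjusted p = 0.00411, limma), while the sum of 1.36 ± 0.55 (SE) did not (adjusted p = 0.183, limma), and the 9 sums ranged over 0.51 to 2.75. C15C7.4, also on that list, had 2.36, 2.97 and 1.99 followed by -3.87, -3.06 and 0.56, and its sum of 0.32 ± 1.08 (SE) turned to -1.03 when replicate 3 of 19Q over GFP only was left out. Of the 16 tested genes listed as lower in 19Q cells, 14 had sums below 0 (44.4% of all genes tested did) and 2 were called lower, K05G3.2 and C05D12.1, against 0.236% of all genes tested. Their median was -2.92, with step medians of -0.69 and -2.32. The 2 tested genes listed as higher, Y47H10A.5 and ZK792.7, had sums of 0.72 ± 0.99 and 1.97 ± 0.86 (SE), with first steps below 0 and second steps above 0.

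Of the 51 genes called lower, 4 belong to the idpa, idpb, idpc and idpp classes. These symbols stand for proteins with intrinsically disordered stretches that are associated with the cuticle lining the pharynx, a structure that also holds chitin. Of 27 such genes tested, 24 had sums below 0, against 44.4% of all genes tested. Called lower were idpp-12, idpc-6, idpa-3 and idpc-7, against 0.236% of all genes tested. idpc-7 lost its call when arrays were centred and scaled. Another 12 reached an unadjusted p under 0.05 in the same direction, which makes 16 of 27, against 10.8% of all genes tested. The median sum was -1.35, with -1.22 in 128Q over 19Q and -0.29 in 19Q over GFP only. These classes were put together after their values had been seen. Whether related copies share signal on the array was not tested. The 4 pharynx markers had no named probe, so whether pharyngeal RNA moved with these genes was not tested either.

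idpc-6 drew on both steps alike. It read -1.70, -1.93 and -1.73 in 128Q over 19Q and -1.23, -1.61 and -1.96 in 19Q over GFP only, for a sum of -3.38 ± 0.29 (SE, adjusted p = 0.00647, limma). idpc-7, its direct neighbour in the gene order of the reference annotation, read -1.67, -1.96 and -1.54 followed by -0.70, -0.88 and -0.62, for a sum of -2.45 ± 0.26 (SE). The 6 values of each gene were all below 0, and idpc-7 had the smaller second step. idpp-12 read -2.27, -1.38 and -1.70 followed by -1.93, -1.37 and -2.64, and idpa-3 read -2.31, -2.37 and -2.45 followed by -0.31, -1.29 and -1.23. In idpa-3 the 3 values of the first step were closer together than those of the second. idpc-1 had the lowest sum of these classes, -3.84 ± 0.49 (SE), yet missed the threshold (adjusted p = 0.0114, limma), and replicate 3 of its second step read -0.04 beside -1.12 and -1.92. At the other end idpa-1, idpp-15 and idpp-10 had sums of 0.10 ± 0.34, 0.18 ± 0.38 and 0.40 ± 0.38 (SE).

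**Figure D4:**
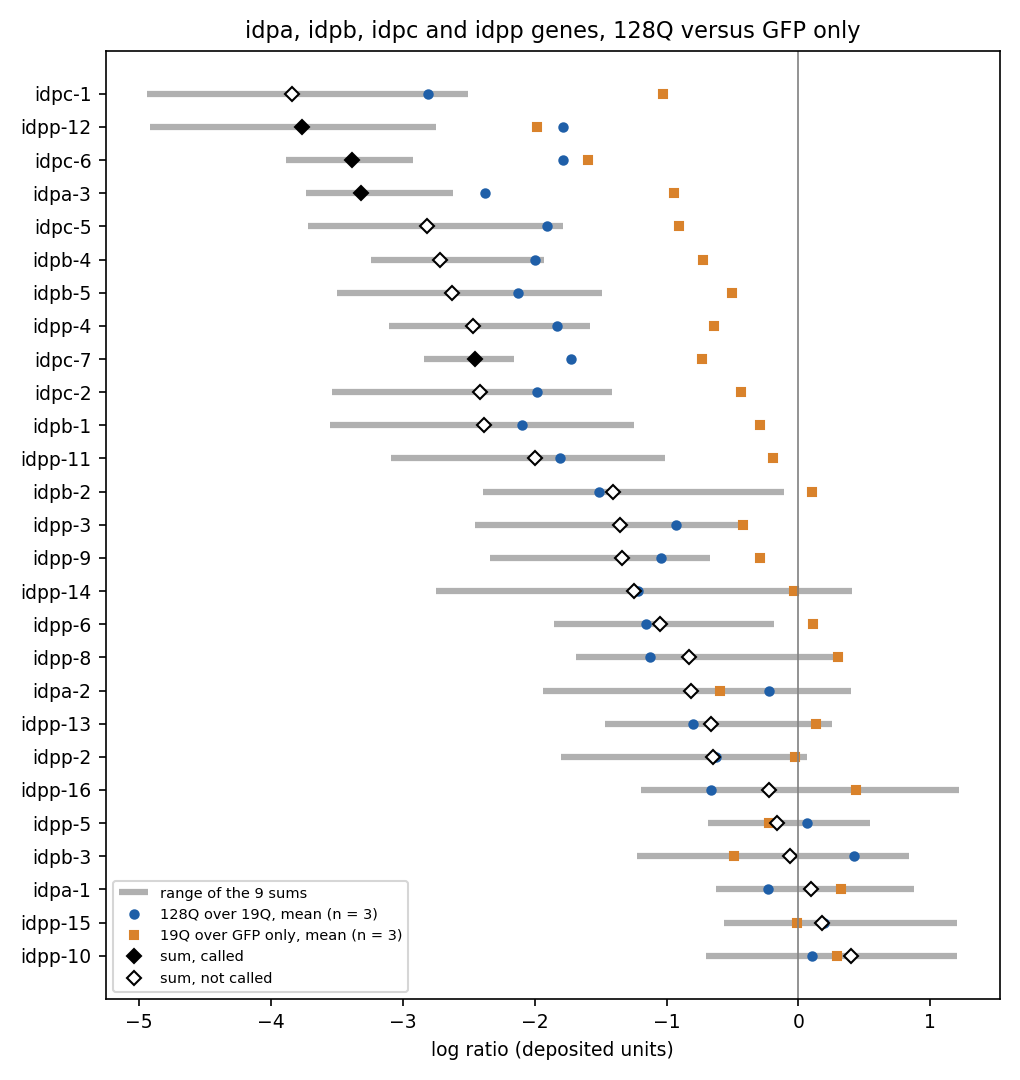
The 27 idpa, idpb, idpc and idpp genes are ordered by their sum for 128Q versus GFP only (diamonds, filled where called), with the range of the 9 sums as grey bars, the mean of 128Q over 19Q as blue circles and the mean of 19Q over GFP only as orange squares, in deposited units. In 16 genes the whole grey bar lies below 0. Each diamond is the circle plus the square, so ordering by the sum in itself puts both below 0 more often at the low end.

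The chitinase gene cht-6 was called lower as well, with -2.04, -2.16 and -2.19 in 128Q over 19Q and -0.37, -1.49 and -0.80 in 19Q over GFP only. Its sum was -3.01 ± 0.34 (SE, adjusted p = 0.00806, limma), 70.7% from the first step. cht-5, the only other chitinase gene with a named probe, had -2.16 ± 0.39 (SE) and did not pass (adjusted p = 0.0241, limma). The 6 cpg genes, a class named for chondroitin proteoglycans, had sums of -3.76 to -0.00833, and 0 passed, with 2 at an unadjusted p under 0.05, against 10.8% of all genes tested in that direction. cpg-19 came nearest, with -2.95, -2.84 and -3.71 followed by -0.60, -1.36 and 0.17, a sum of -3.76 ± 0.45 (SE) and an adjusted p of 0.0102 (limma). cht-6 lost its call when arrays were centred and scaled. Both groups of genes were chosen after their values were seen.

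Mitochondrial genes mostly had sums above 0, as did 55.5% of all genes tested, and 0 were called. These were the named genes of sets derived from 128Q over 19Q on these arrays, so their direction in the sum is not independent evidence. Of the 62 genes listed in the mitochondria set, 12 were tested. Of these, 11 had sums above 0 and 0 were called, with 5 at an unadjusted p under 0.05, against 15% of all genes tested. For oxidative phosphorylation, where 10 of 45 listed genes were tested, it was 10 of 10 above 0, 0 called and again 5. The sets share 4 genes, and 2 of these (ndub-3 and R05D3.6) are counted among the 5 of each. The oxidative phosphorylation median was 1.06, and the medians of the steps were 0.73 and 0.15. ndus-8 and ndab-1, which encode subunits of complex I, had the highest sums of that set, 1.69 ± 0.61 and 1.56 ± 0.46 (SE). Of these sums 34.5% and 42.8% came from 128Q over 19Q, against a median share of 48.9% over all genes tested. The contrast between the steps passed in neither gene. Replicate 3 of 19Q over GFP only read 2.26 and 1.75, beside 0.44 to 0.61 on the other 2 arrays of that step. cox-6C, a cytochrome c oxidase subunit gene, had 0.83 ± 0.36 (SE), with a second step of -0.05. Of the 80 genes in a cell cycle set, which was also derived from 128Q over 19Q on these arrays, 7 were tested. All 7 were above 0, with a median of 0.65, and 0 were called. Among them the replication fork gene ctf-4 had 0.78 ± 0.35 (SE), with a first step of 1.05 and a second of -0.27.

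Putative targets of daf-16, the FOXO factor that promotes stress resistance and longevity in the worm, mostly had sums in the direction listed for them in 128Q over 19Q. Of 14 tested genes listed as higher, 13 had sums above 0 (55.5% of all genes tested did), and cup-16 and F19C6.4 were called higher, against 0.434% of all genes tested. F19C6.4 read 2.39, 1.95 and 2.03 in 128Q over 19Q and 0.74, 0.51 and 0.63 in 19Q over GFP only, for a sum of 2.75 ± 0.26 (SE). The median over the 14 was 2.15, with step medians of 1.81 and 0.33. prdh-1, a proline dehydrogenase gene, had 1.86 ± 0.32 (SE) and did not pass (adjusted p = 0.0203, limma). Of 15 listed as lower, 13 had sums below 0 (44.4% of all genes tested) and 0 were called, with 9 at an unadjusted p under 0.05, against 10.8%. Their median was -1.41, with step medians of -1.39 and -0.01. In lro-1, nspg-10 and F35E12.9 second steps of 1.35 to 1.54 offset first steps of -1.57 to -1.33, which left sums of -0.22, 0.05 and 0.20. These lists too were chosen on these arrays.

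The pals genes, some of which control the response of the worm to intracellular pathogens, had the larger of their step medians in 19Q over GFP only, as did all genes tested. Of 26 tested, 20 had sums above 0, against 55.5% of all genes tested. Only 1 was called higher (pals-30), against 0.434% of all genes tested. An unadjusted p under 0.05 in that direction was reached by 7, against 15% of all genes tested. The median sum of the 26 genes was 0.31, with step medians of 0.09 in 128Q over 19Q and 0.31 in 19Q over GFP only. Over all genes tested these step medians were 0.05 and 0.09. pals-27 read 0.04, 0.65 and 0.29 in the first step and 0.64, 1.54 and 1.13 in the second, for a sum of 1.43 ± 0.33 (SE), which did not pass (adjusted p = 0.0481, limma). The regulators pals-22 and pals-25 had 0.73 ± 0.25 and 0.45 ± 0.30 (SE). Centring on medians gave these genes a median of 0.17 and all genes tested a median of -0.05.

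The neuropeptide-like nlp genes had step medians of opposite sign. Of 25 tested, 18 had sums below 0 (44.4% of all genes tested did) and 0 were called, with 5 lower at an unadjusted p under 0.05 (10.8% of all genes tested) and a median of -0.69. In 23 of them the first step was below 0 (median -0.93), against 45.5% of all genes tested, while in 19 the second was above 0 (median 0.30), against 57.5%. The nssp genes, a class of small nematode-specific peptides, were alike, with 43 of 57 sums below 0, 0 called and step medians of -0.65 and 0.25. In the pugs genes, by contrast, both step medians were negative, -0.61 and -0.50. Of 10 tested 8 had sums below 0, 0 were called and 7 reached an unadjusted p under 0.05, against 44.4% below 0 and 10.8% at that p among all genes tested. pugs-11 read -0.37, -0.18 and -0.15 in 128Q over 19Q and -1.42, -1.88 and -1.26 in 19Q over GFP only, so 86.8% of its sum of -1.75 ± 0.27 (SE, adjusted p = 0.0172, limma) came from the second step. Of 15 dbd genes, 12 had sums below 0 and 0 were called, with a median of -0.52. An unadjusted p under 0.05 was reached by 7 of them in that direction, against 10.8% of all genes tested. In 128Q over 19Q alone 3 dbd genes passed, against 2.86% of all genes tested. In the cest, clc, gtnt, lido, npr, nspg, slc, spe, spig, srlf, ttbk and txt classes 0 genes were called, and median sums ranged over -0.31 to 0.59.

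The threshold fell among genes of much the same size. T03D8.6 (-2.68 ± 0.31, SE) and uad-2 (2.27 ± 0.27, SE) were the last named genes inside it, and C48E7.1 (-2.71 ± 0.33, SE) and M01F1.9 (2.36 ± 0.28, SE) the first outside.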

How the data were processed

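The deposited values are treated as a score, that is a log ratio of Cy5 over Cy3 whose log base the authors did not state in the sources used here. The authors amplified the RNA linearly and ran 3 independent experiments with dye swaps. How the swapped arrays were merged, the background correction and the normalization were not given in the sources used here. Probes of a gene were averaged, with names from the platform annotation for 7718 of 22562 probes, 7691 of them matched to the RefSeq gene table. In R 4.3.3, both steps entered 1 linear model (limma 3.58.1, empirical Bayes moderation), and their sum was tested as a contrast, with p values adjusted over 21642 genes by Benjamini and Hochberg at 0.01. The methods' test, VarMixt, was not used. An SE is that of the moderated fit, and 6 arrays limit the precision. The fit was checked on simulated data.

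Named genes were the 12 highest and 12 lowest sums among called genes, up to 3 per class of share, the 2 with the lowest p of each list, the genes listed for 19Q cells, the lowest p and the nearest to the threshold. Others named within a list were picked after their values were seen. Members and lists were chosen with earlier results of these data known. Where the planned design assumed plain log ratios, the same test was kept. No sequence is shown. Alternatives were scalings, probe filters, fits, a looser threshold, replicate blocks and leaving out each array.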

Additional observations from a re-analysis of the deposited data

How the results depend on the processing

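For 128Q versus GFP only (145 genes), 274 were called with arrays divided by their SD and 274 without the 244 evenly spaced low probes, 422 without those probes and with arrays then divided by their SD (added after seeing the data), 611 with the steps fitted separately and 1619 at an adjusted p under 0.05. Leaving out each array gave 0 to 538. Centring on medians gave 141 (81 higher and 60 lower), centring and scaling 53 higher and 69 lower, robust moderation 147, at least 2 of 3 values 138, single probes 144 and named genes alone 175. The sums of all 145 kept their sign under each of these settings that gives a value for them.

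Called genes with over 75% of the sum from 128Q over 19Q (102, those with opposed steps included) numbered 197 with arrays divided by their SD, 172 without the low probes, 232 with both, 319 with separate fits, 673 at 0.05 and 0 to 171 without each array. The difference between the steps, with 0 calls as reported, gave 55 with arrays divided by their SD, 27 where the low probes were left out as well, 25 with named genes alone, 230 with separate fits, 935 at 0.05 and 0 to 1 without each array. For 128Q over 19Q (619) there were 357 with named genes alone, 2305 at 0.05 and 0 to 1471 without each array. For 19Q over GFP only, 0 genes were called under each setting that tested this step. Those tests used a spread shared with 128Q over 19Q, and a test on the spread of this step alone was not run. The 102 genes with over 75% from the first step were 70.3% of the calls. That share was 41.6% at 0.05 and 31.8% without replicate 3 of 19Q over GFP only. The looser threshold raises a count by construction, and for the other settings the cause was not tested.

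Whether replicate numbers pair the arrays is not stated, and the deviations of same-numbered arrays correlated with r = 0.43, -0.13 and 0.335, or -0.0383, -0.000412 and 0.00507 without the low probes. With the replicate number as a block, 1 gene was called in 128Q versus GFP only, which is not among the 145, 0 with over 75% from the first step, and 216 in 128Q over 19Q. Sums of same-numbered arrays as a replicate block gave 0 and 0.

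Beyond the called genes, signs were followed only for the genes picked by the rules above and the idp genes. Among all of these, signs turned only in genes that were not called. The sum of idpa-1 was -0.05 on arrays centred on their medians, -0.10 where these were scaled too, -0.00417 where the low probes were dropped and arrays divided by their SD, and -0.16 to 0.38 without each array. C15C7.4 had -0.0598 where the low probes were dropped and arrays divided by their SD, and -1.03 to 1.19 without each array. Without each array, idpb-3 had -0.35 to 0.28, idpp-15 -0.18 to 0.42, idpp-16 -0.62 to 0.0508, idpp-5 -0.49 to 0.0850, Y47H10A.5 -0.39 to 1.82 and Y71G12B.10 -1.79 to 0.0387.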
